A study of Danio rerio with 9 samples.

Results

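The genes described here encode centrosomal Cep proteins and the proteins that assemble centrioles. They were chosen by name alone from the table of 33737 genes: 32 rows named *cep* with a number, with or without a further letter, and 15 rows for named centriole, satellite and pericentriolar matrix genes, 47 rows in all. No row had the name *odf2* as such, so 15 of the 16 listed names were found. RNA was sequenced from whole zebrafish embryos (strain TuAB) at 72 hours post-fertilization (hpf), in 3 groups of 3 libraries, each library from a pool of 30 embryos. The groups were wild type, maternal zygotic *cep290* mutants (*MZcep290*-/-), which carried a 10-bp deletion in exon 16 and came from mutant mothers, and *cep290ex25* morphants, in which a morpholino against the splice donor of exon 25 had been injected into the early embryo. The labels give the wild type as TuAB and the study calls it sibling embryos, and the clutches behind each pool are not given. No library from embryos injected with a control morpholino was among the samples, so the effect of injection and that of the *cep290* knockdown cannot be told apart. Libraries were polyA-selected, and in whole embryos fewer cells of a type and less RNA per cell cannot be told apart.

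The centrosome is built around a pair of centrioles, microtubule barrels that duplicate once in each cell cycle. The kinase Plk4 starts the process, Stil and Sass6 form the cartwheel from which the new centriole grows, and Cenpj adds its microtubules. The mature centriole is surrounded by pericentriolar matrix, which nucleates and anchors microtubules, and by satellites, granules that bring proteins to it. In a resting cell the older centriole carries distal appendages, docks at the membrane and becomes the basal body of a cilium. Cep290, the protein targeted here, is found in the satellites and in the transition zone at the base of the cilium. A Cep name says only that a protein was found at the centrosome, and the roles given below are in the main those of the human proteins.

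Of the 47 rows, 44 were tested, and *cep72* (a satellite protein), a second row named *cep19* and *CEP170B (3 of 3)* had 0 reads in all 9 libraries. A count of 0 allows up to 3 reads in a library. Levels are given in RPKM (reads scaled to gene length and to a normalized library size, as the authors deposited them), which allows levels to be compared between genes. The 44 genes were expressed at low levels, with means over the 9 libraries of 0.863 to 14.0 RPKM and a median of 2.48 RPKM, against 3.43 RPKM for all 21982 genes tested. The highest were the centrins *cetn4* and *cetn2*, calcium-binding proteins of the centriole lumen, followed by *cep170a*, *pcm1* and *plk4*. *cetn4* ranged from 7.88 to 19.2 RPKM over the libraries and *cetn2* from 5.85 to 13.4 RPKM. *cep170a* ranged from 8.89 to 10.8 RPKM, *pcm1* from 8.32 to 11.3 RPKM and *plk4* from 4.35 to 8.47 RPKM, so that each gene in this order overlapped the next. A further 15 genes had a mean under 2 RPKM.

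Depth and the spread between replicates differed between the groups. The wild-type libraries held 5652757 to 7674248 reads on genes, the mutant ones 18662115 to 21299112 and the morphant ones 9050375 to 16150393, and the median gene of the 44 had a mean of 41.3, 211 and 86.5 reads in these groups. The coefficient of variation between replicates had a median of 40.3% in wild type, 10.0% in the mutant and 20.5% in the morphant over the 44 genes. Over all genes tested it was 32.2%, 10.2% and 21.6%. Counting alone would give medians of 15.6%, 6.90% and 10.8%. The wild-type spread was above the mutant spread for 39 of the 44 genes and above the morphant spread for 27. In wild type 17 of the genes had under 20 reads in at least 1 library, against 2 in the mutant. *CEP112 (3 of 3)*, *cep41*, *ninl* and *CEP57* were each at 0 in at least 1 wild-type library.

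**Figure D1:**
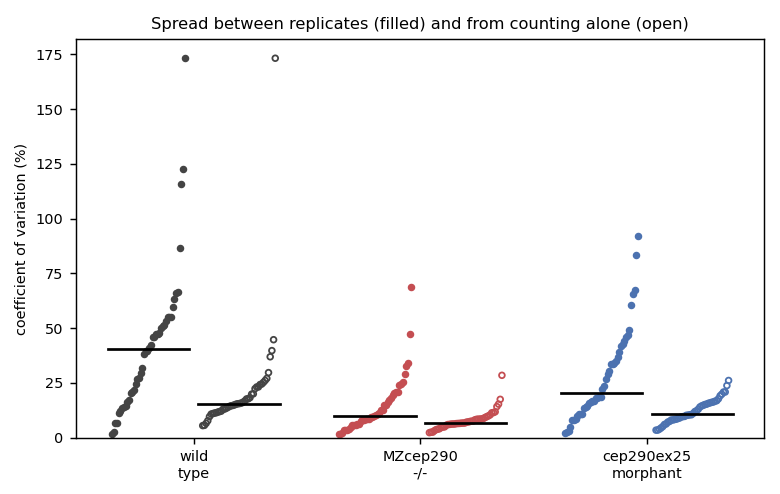
Spread between the 3 replicates of each group for the 44 tested genes. The y axis is the coefficient of variation in percent, each filled point is a gene's spread over the replicates in RPKM, each open point is the spread that counting reads alone would give that gene, genes are sorted within a group, and the bars are medians. The filled points of wild type have a median of 40.3% and those of the mutant one of 10.0%, and in each group the filled median lies above the open one (15.6%, 6.90% and 10.8% from left to right).

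*cep290* itself was measured first, as the targeted gene. Wild type had levels of 2.60, 1.62 and 1.72 RPKM, the mutant 1.32, 1.14 and 1.29 RPKM and the morphant 5.45, 6.15 and 3.36 RPKM. Every mutant library was below every wild-type library, and every morphant library above both other groups. In the morphant *cep290* rose 2.42-fold against wild type (log2 fold change 1.27 ± 0.31 (SE), limma adjusted p = 0.0113). With 1 RPKM added to each value before the logarithm this log2 fold change was 0.99, just under 2-fold. In the mutant the log2 fold change was -0.60 ± 0.31, which did not pass (adjusted p = 0.158). The mutant was lower than the morphant by a log2 fold change of -1.88 ± 0.31 (adjusted p = 0.0046). A level summed over the gene does not show which exons or splice forms the reads came from.

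A gene was called where its adjusted p was under 0.05 over all genes tested and its fold change above 2, in a limma fit of all 9 libraries on log2(RPKM + 0.1). Fold changes are on that scale, which understates those of low genes. The error of a gene was estimated from all 9 libraries together, so the wild-type spread also enters the comparison of mutant and morphant. In the mutant against wild type 2 of the 44 genes were called higher (*cep85l* and *CEP112 (3 of 3)*) and 1 lower (*cep89*), which is 4.55% and 2.27% of them, set beside 10.4% and 12.1% of all genes tested. In the morphant against wild type 2 were higher (*cep290* and *CEP112 (3 of 3)*) and 2 lower (*cep89* and *cep170b*), against 7.45% and 14.9% of all genes. In the mutant against the morphant 1 was higher (*CEP250*) and 1 lower (*cep290*), against 3.48% and 2.4%. In all, 6 genes were called in at least 1 comparison and 38 in none. The counts depended on single libraries. The number higher in the mutant against wild type was 6, 4 and 1 without wild-type replicates 1, 2 and 3. It was 1 without mutant replicate 1 and 0 without mutant replicate 2 or 3. Over all genes this number was 2286 with every library, 2500 to 2582 without a wild-type one and 1785 to 1830 without a mutant one. In the morphant 6 were higher without wild-type replicate 1 and 3 without wild-type replicate 2, and 4 were lower without wild-type replicate 3. Of all genes 1637 were higher there with every library, 1797 without wild-type replicate 1 and 1813 without wild-type replicate 2. The number lower was 3273 with every library and 3605 without wild-type replicate 3. Against the morphant, none of the 44 genes was higher in the mutant when any mutant or morphant library was left out. Without wild-type replicate 1 or 3, 2 were higher. Over all genes the number was 766 with every library, 258 to 279 without a mutant one and 421 to 897 without a morphant one. Without wild-type replicate 1 or 3 it was 1064 or 974. The first 2 comparisons share the wild-type libraries, so that a gene out of line in those libraries moves in both.

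With no limit on fold, the adjusted p was under 0.05 for 3 genes higher and 2 lower in the mutant (17.8% and 18.2% of all genes), for 3 higher and 2 lower in the morphant (16.6% and 18.5%), and for 1 higher and 1 lower in the mutant against the morphant (5.28% and 8.33%). The genes this added were *cep135* in both comparisons with wild type and *ofd1* in the mutant. Within 2-fold of no change lay 34 of the 44 genes in the mutant, 34 in the morphant and 37 in the mutant against the morphant (77.3%, 77.3% and 84.1%, where all genes had 65.0%, 65.1% and 79.6%). The median log2 fold change of the 44 genes was 0.20 in the mutant, where that of all genes was -0.02. It was -0.06 in the morphant (all genes -0.05) and 0.12 in the mutant against the morphant (all genes 0.14). Genes above no change numbered 27 of 44 in the mutant, 20 in the morphant and 28 between mutant and morphant (61.4%, 45.5% and 63.6%, against 49.2%, 48.0% and 58.4% of all genes). The summed level of the 44 genes was 134 to 135 RPKM in wild type, 149 to 152 RPKM in the mutant and 136 to 148 RPKM in the morphant.

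**Figure D2:**
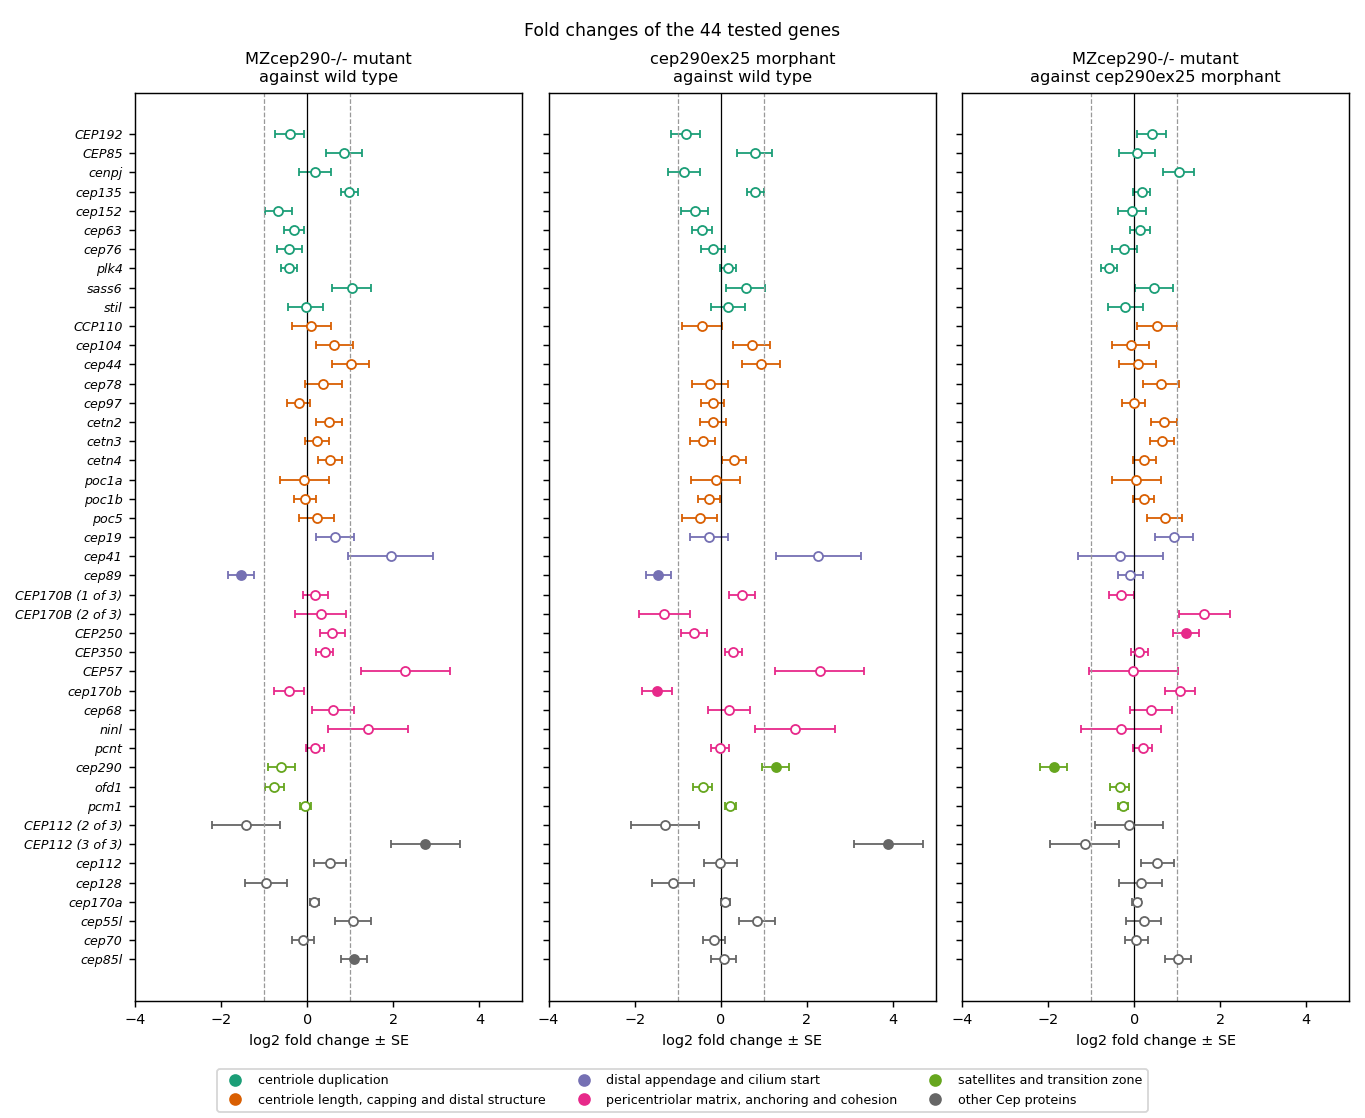
Log2 fold change (x axis) of each of the 44 tested genes (y axis, grouped and coloured by role) in the 3 comparisons, with bars of 1 SE from the limma fit. Filled points are genes called at an adjusted p under 0.05 and over 2-fold, and dashed lines mark a 2-fold change. The filled points number 3 in the left panel, 4 in the middle and 2 on the right, and *cep89* is filled in both comparisons with wild type.

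Centriole duplication was represented by 10 genes, none of which limma called in any comparison (3, 3 and 2 had an unadjusted p under 0.05 in the mutant, the morphant and the mutant against the morphant, which is 30%, 30% and 20% of them, where all genes had 45.8%, 46.0% and 28.5%). *plk4*, whose kinase activity licenses a new centriole, was at 7.72, 5.57 and 6.14 RPKM in wild type, 4.82, 4.35 and 5.09 RPKM in the mutant and 7.55, 5.82 and 8.47 RPKM in the morphant. The mutant libraries lay below those of both other groups, which overlapped each other. The log2 fold change was -0.43 in the mutant (95% interval -0.86 to 0.00, adjusted p = 0.109) and -0.59 in the mutant against the morphant (-1.02 to -0.16, adjusted p = 0.0726), neither of which passed.

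*stil*, which Plk4 phosphorylates, was at 1.12, 2.23 and 3.70 RPKM in wild type, 2.00, 2.43 and 1.77 RPKM in the mutant and 2.37, 2.85 and 1.99 RPKM in the morphant. The wild-type libraries spanned the values of both other groups, and the 95% interval of the log2 fold change ran from -0.94 to 0.86 in the mutant and from -0.74 to 1.07 in the morphant. In the mutant a change of almost 2-fold either way was thus not excluded for *stil*. *sass6*, the building block of the cartwheel, was at 0.989, 1.48 and 0.531 RPKM in wild type, 1.81, 2.04 and 2.15 RPKM in the mutant and 0.858, 2.21 and 1.52 RPKM in the morphant. Every mutant library was above every wild-type one, with a log2 fold change of 1.03 (0.02 to 2.04) that did not pass (adjusted p = 0.1025). The lowest wild-type value of *sass6* rested on 10 reads.

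*cenpj*, which adds tubulin to the growing centriole, was at 2.33, 1.53 and 1.05 RPKM in wild type, 2.00, 2.04 and 1.37 RPKM in the mutant and 0.806, 0.762 and 0.890 RPKM in the morphant. Every morphant library was below every library of the other groups. The log2 fold change was -0.85 (-1.68 to -0.02) in the morphant against wild type (adjusted p = 0.1008) and 1.03 (0.20 to 1.86) in the mutant against the morphant (adjusted p = 0.1012), and neither passed. On the recovered reads voom, a count-based form of limma, gave -0.93 and 1.13 for these, and the latter passed (adjusted p of 0.1210 and 0.0142). The comparison of mutant and morphant also passed in a fit of only these groups, with group weights and with read totals. Over all genes these fits called 1610, 1731 and 2400 higher in the mutant, where the main fit called 766.

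Of the other 6 duplication genes, *cep135*, which links the cartwheel to the centriole microtubules, passed the adjusted p below 2-fold and was singled out after its values were seen. It was at 3.16, 2.28 and 2.67 RPKM in wild type, 4.76, 5.73 and 5.70 RPKM in the mutant and 4.24, 5.71 and 4.46 RPKM in the morphant. Mutant and morphant were above wild type in every library, by 1.97-fold (log2 fold change 0.98 ± 0.20, adjusted p = 0.0054) and 1.75-fold (0.81 ± 0.20, adjusted p = 0.0135). *cep63*, *cep152* and *CEP192*, which place Plk4 on the parent centriole, had log2 fold changes of -0.30, -0.67 and -0.41 in the mutant and -0.43, -0.61 and -0.81 in the morphant, none of which passed (adjusted p of 0.0903 to 0.382). *CEP192* was at 1.11 to 1.17 RPKM in wild type, 0.809 to 0.871 RPKM in the mutant and 0.539 to 0.671 RPKM in the morphant, with no overlap between any of the groups. *cep76* and *CEP85*, which in human cells restrain and promote duplication, did not pass either. The summed level of the 10 genes was 25.3 to 28.4 RPKM in wild type, 25.6 to 28.5 RPKM in the mutant and 25.9 to 28.0 RPKM in the morphant, ranges that overlapped throughout.

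**Figure D3:**
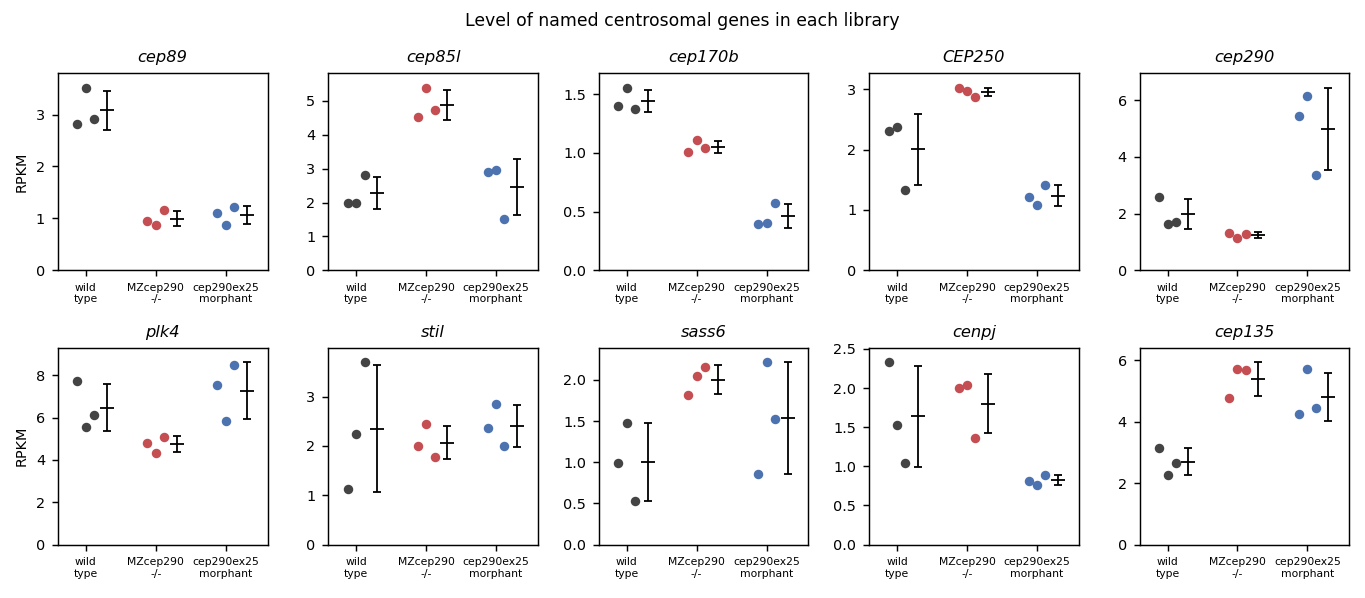
Levels of 10 genes in RPKM (y axis, from 0, own scale in each panel) in the 3 libraries of each group, with the mean ± SD beside the points. The top row holds the genes called in at least 1 comparison other than *CEP112 (3 of 3)*, and the bottom row the core duplication genes and *cep135*. *cep89* runs from 2.82 to 3.52 RPKM in wild type, with no other library above 1.23 RPKM, whereas *stil* spans 1.12 to 3.70 RPKM in wild type alone.

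The genes for centriole length, capping and distal structure numbered 11, with means from 1.20 RPKM for *CCP110* to 14.0 RPKM for *cetn4*, and limma called none in any comparison (1, 0 and 2 had an unadjusted p under 0.05, or 9.09%, 0% and 18.2%, likewise below the shares of all genes). *CCP110* and its partner *cep97* cap the centriole and hold back the growth of a cilium. *CCP110* ranged from 0.860 to 1.98 RPKM in wild type, 0.953 to 1.86 RPKM in the mutant and 0.622 to 1.42 RPKM in the morphant, and *cep97* from 3.74 to 4.84, 3.40 to 3.83 and 2.54 to 5.30 RPKM. For both genes the groups overlapped. The median log2 fold change of the 11 genes was 0.23 in the mutant, -0.19 in the morphant and 0.24 in the mutant against the morphant, and 8, 3 and 9 of them were above no change. The mutant libraries were above the morphant ones without overlap for *cetn2*, *cetn3*, *cetn4* and *poc5*, proteins of the centriole lumen, with log2 fold changes of 0.69, 0.65, 0.24 and 0.71 and adjusted p of 0.170, 0.172, 0.626 and 0.295. None of these passed. Of the 44 genes 13 were above and 5 below without overlap in this comparison. The share of all genes separated in this way was not counted in any comparison. Separation can thus not be taken as particular to these genes or to any other gene named here. *poc1a* and *poc1b*, which stabilize the centriole wall, had log2 fold changes of -0.07 and -0.05 in the mutant. The largest difference in the group was that of *cep44*, at 0.757 to 1.99 RPKM in wild type and 1.77 to 2.83 RPKM in the mutant (log2 fold change 1.01, adjusted p = 0.0981). The summed level of the 11 genes was 36.9 to 49.8 RPKM in wild type, 51.6 to 54.1 RPKM in the mutant and 41.8 to 43.8 RPKM in the morphant, so that the mutant lay above both other groups. Much of this sum came from *cetn2* and *cetn4*, with means of 9.26 and 12.1 RPKM in wild type and 12.5 and 16.2 RPKM in the mutant. For both genes these groups overlapped, and neither passed (adjusted p of 0.224 and 0.162).

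The distal appendages and the start of the cilium were represented by *cep89*, *cep19* and *cep41*. *cep89* encodes a distal appendage protein, part of the structure by which a centriole docks at the membrane. It was at 2.82, 3.52 and 2.91 RPKM in wild type, 0.954, 0.871 and 1.16 RPKM in the mutant and 1.10, 0.876 and 1.23 RPKM in the morphant. All 6 mutant and morphant libraries were below all 3 of wild type, and mutant and morphant overlapped. *cep89* fell 2.91-fold in the mutant (log2 fold change -1.54 ± 0.29, adjusted p = 0.0036) and 2.73-fold in the morphant (-1.45 ± 0.29, adjusted p = 0.0051), and the mutant and the morphant differed by -0.09 (95% interval -0.76 to 0.57). The call held when any library was left out. It was lost in the mutant when values were scaled by read totals (log2 fold change -0.86, where the median of all genes moved to 0.68) and in the morphant with a pseudocount of 1 (-0.98) or cyclic loess normalization (-0.98), each of which brought the change just under 2-fold with the adjusted p still below 0.05. *cep19*, which acts at the entry of transport trains into the cilium, and *cep41*, which takes part in the glutamylation of ciliary tubulin, did not pass. *cep19* was at 0.659 to 2.59 RPKM in wild type, 2.1 to 2.48 RPKM in the mutant and 0.963 to 1.33 RPKM in the morphant. *cep41* had between 0 and 15 reads in the wild-type libraries and log2 fold changes of 1.94 ± 0.98 and 2.27 ± 0.98 against wild type in the mutant and the morphant.

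The pericentriolar matrix, microtubule anchoring and centrosome cohesion were represented by 9 tested genes. *CEP250*, also known as C-Nap1, forms the linker that holds the pair of centrioles together. It was at 2.31, 2.38 and 1.32 RPKM in wild type, 3.02, 2.97 and 2.88 RPKM in the mutant and 1.22, 1.08 and 1.42 RPKM in the morphant. Every mutant library was above every other library, and wild type and morphant overlapped. The mutant exceeded the morphant 2.30-fold (log2 fold change 1.20 ± 0.30, adjusted p = 0.0279), with 0.58 in the mutant and -0.62 in the morphant against wild type, neither of which passed. The call was lost when any of the 6 mutant and morphant libraries was left out, with the log2 fold change between 1.11 and 1.29 and the adjusted p between 0.0514 and 0.1143. The names table used here pairs this row with a clone-based symbol only, so its name rests on the deposited table.

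*cep170b*, named for a relative of Cep170, a protein of the subdistal appendages where microtubules are anchored, was at 1.40, 1.55 and 1.37 RPKM in wild type, 1.00, 1.11 and 1.04 RPKM in the mutant and 0.394, 0.406 and 0.576 RPKM in the morphant. The groups did not overlap. In the names table used here this row has the symbol *cep170ab*, so its name rests on the deposited table. *cep170b* fell 2.79-fold in the morphant against wild type (log2 fold change -1.48 ± 0.34, adjusted p = 0.0096). The other comparisons, -0.42 in the mutant against wild type and 1.06 in the mutant against the morphant, did not pass (adjusted p of 0.375 and 0.0747). With cyclic loess normalization, which removes differences that depend on level, the morphant value was -0.11 (adjusted p = 0.8503), which ended the call. It was also lost with a pseudocount of 1 (-0.75, under 2-fold), in a fit of only the morphant and wild type (-1.48, adjusted p = 0.0591) and with group weights (adjusted p = 0.0515).

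Of the other matrix genes none was called. *pcnt* (pericentrin), the scaffold of the matrix and the longest gene of the set, was at 2.26 to 2.76 RPKM in wild type, 2.69 to 2.88 RPKM in the mutant and 2.28 to 2.65 RPKM in the morphant, with a log2 fold change of 0.18 ± 0.21 in the mutant and -0.01 ± 0.21 in the morphant. Its 95% intervals lay within 2-fold of no change in both. *CEP350*, which anchors microtubules, was at 2.60 to 3.85 RPKM in wild type and above that in the mutant (4.29 to 4.78 RPKM) and the morphant (4.04 to 4.28 RPKM) in every library, with log2 fold changes of 0.41 and 0.29 (adjusted p of 0.136 and 0.281). *ninl* (ninein-like) and *CEP57* had between 0 and 16 reads in the wild-type libraries, and *cep68*, a partner of *CEP250* in the linker, had between 18 and 46 reads there. Their log2 fold changes in the mutant were 1.42, 2.27 and 0.59, each with an SE of 0.49 or more. The summed level of the matrix genes was 16.5 to 19.4 RPKM in wild type, 23.2 to 24.4 RPKM in the mutant and 18.6 to 23.1 RPKM in the morphant.

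The satellites and the transition zone were represented by *pcm1*, *ofd1* and *cep290*. *pcm1*, which encodes the scaffold of the satellites, was at 9.47, 8.32 and 8.74 RPKM in wild type, 8.43, 8.62 and 8.68 RPKM in the mutant and 10.6, 9.16 and 11.3 RPKM in the morphant. Its log2 fold change was -0.04 ± 0.12 in the mutant and 0.22 ± 0.12 in the morphant, the smallest errors of the set after *cep170a*, and did not pass. *ofd1*, a satellite and centriole protein that limits centriole length, was singled out after its values were seen. It was at 6.03, 3.65 and 4.96 RPKM in wild type, 2.68, 3.09 and 2.58 RPKM in the mutant and 3.53, 3.38 and 3.73 RPKM in the morphant. The mutant libraries were below all others, and *ofd1* was 1.70-fold lower in the mutant than in wild type (log2 fold change -0.76 ± 0.22, adjusted p = 0.0236), under the 2-fold line. In the morphant the value was -0.42 ± 0.22 (adjusted p = 0.163). *pcm1*, *ofd1* and *cep290* summed to 13.6 to 18.1 RPKM in wild type, 12.4 to 12.8 RPKM in the mutant and 18.4 to 19.6 RPKM in the morphant, with no overlap between the groups. Without *cep290* the sum was 11.97 to 15.5 RPKM in wild type, 11.1 to 11.7 RPKM in the mutant and 12.5 to 15.1 RPKM in the morphant, so that wild type and morphant overlapped.

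Among the 8 remaining Cep genes *cep85l*, a relative of *CEP85* whose human counterpart is needed for neuronal migration, was called in the mutant. It was at 2.00, 1.99 and 2.82 RPKM in wild type, 4.52, 5.39 and 4.73 RPKM in the mutant and 2.91, 2.97 and 1.5 RPKM in the morphant. Every mutant library was above every other library, and wild type and morphant overlapped. *cep85l* rose 2.12-fold in the mutant against wild type (log2 fold change 1.08 ± 0.30, adjusted p = 0.0192). Against the morphant its log2 fold change was 1.02 ± 0.30 and just missed the threshold (adjusted p = 0.0521). This comparison was called in a fit of only the mutant and the morphant, with group weights and with read totals. It was also called with only genes of a mean of at least 2 RPKM and without wild-type replicate 1 or 3. The call against wild type was lost when any of the mutant libraries was left out (adjusted p of 0.0548 to 0.0773). It was lost too with a pseudocount of 1 (0.85, under 2-fold) and with cyclic loess normalization (0.87, adjusted p = 0.0513). With cyclic loess *sass6* was called in its place (1.29, adjusted p = 0.0454).

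*CEP112 (3 of 3)* was called in both comparisons with wild type from very few reads. Only the mutant and morphant libraries carried it past the filter (0.5 RPKM in 3 libraries), so its calls are not independent of that filter. It had 0, 1 and 0 reads in wild type (0, 0.507 and 0 RPKM), 15, 8 and 14 reads in the mutant (1.32, 0.810 and 1.31 RPKM) and 28, 9 and 7 reads in the morphant (6.37, 1.29 and 2.14 RPKM). All 6 mutant and morphant libraries were above all 3 of wild type. From the summed reads and normalized library sizes the ratio to wild type was 7.22 in the mutant (95% exact interval 1.22 to 293) and 18.7 in the morphant (3.19 to 756), intervals that cover counting error only. The adjusted p was 0.026 in the mutant and 0.0057 in the morphant. On the recovered reads voom did not call it in the mutant (adjusted p = 0.2113). With a pseudocount of 1 the mutant log2 fold change was 0.896, under 2-fold, and the mutant call was lost. That call was also lost on leaving out wild-type replicate 1 or 3 or any of the mutant libraries (adjusted p of 0.0548 to 0.0836).

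Whether rows of a family share reads cannot be told, since the rule by which reads were assigned to near-identical genes is not given in the sources used here. *CEP112 (3 of 3)*, with a length of 405 bases, is the shortest of the 44 genes and is 1 of 3 rows named for *cep112*, a coiled-coil protein of the centrosome. *cep112* itself (1246 bases) ranged from 1.49 to 4.12 RPKM in wild type, 3.25 to 3.85 RPKM in the mutant and 1.77 to 3.45 RPKM in the morphant. *CEP112 (2 of 3)* (1168 bases) ranged from 0.908 to 4.76, 0.428 to 1.88 and 0.529 to 2.68 RPKM, with log2 fold changes of -1.42 ± 0.79 and -1.29 ± 0.79 against wild type, of the opposite sign to those of *CEP112 (3 of 3)*. Taken over their summed length the 3 rows were at 1.44 to 3.57 RPKM in wild type, 2.01 to 2.41 RPKM in the mutant and 1.58 to 2.81 RPKM in the morphant, and the groups overlapped. For *cep170b* and the 3 rows named *CEP170B* the same sum was 1.60 RPKM in each wild-type library, 1.56 to 1.72 RPKM in the mutant and 1.05 to 1.34 RPKM in the morphant. The morphant was below the other groups in this sum, which includes the called row *cep170b* and so is not separate evidence. The rows named *CEP170B* were not summed without it, and the names table has *cep170b* under another symbol (*cep170ab*). Among these rows *CEP170B (2 of 3)* was at 0.771, 0.788 and 0.124 RPKM in the morphant and 0.724, 1.86 and 1.54 RPKM in wild type (log2 fold change -1.31 ± 0.59, adjusted p = 0.115), whereas *CEP170B (1 of 3)* was at 2.69 to 3.33 RPKM in the morphant and 1.43 to 3.15 RPKM in wild type (0.49 ± 0.30, adjusted p = 0.227). *cep170a*, the best measured gene of the set, was at 9.22, 9.04 and 8.89 RPKM in wild type, 10.8, 10.1 and 9.62 RPKM in the mutant and 9.87, 9.80 and 9.51 RPKM in the morphant, and did not pass (log2 fold changes of 0.17 ± 0.10 and 0.10 ± 0.10).

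**Figure D4:**
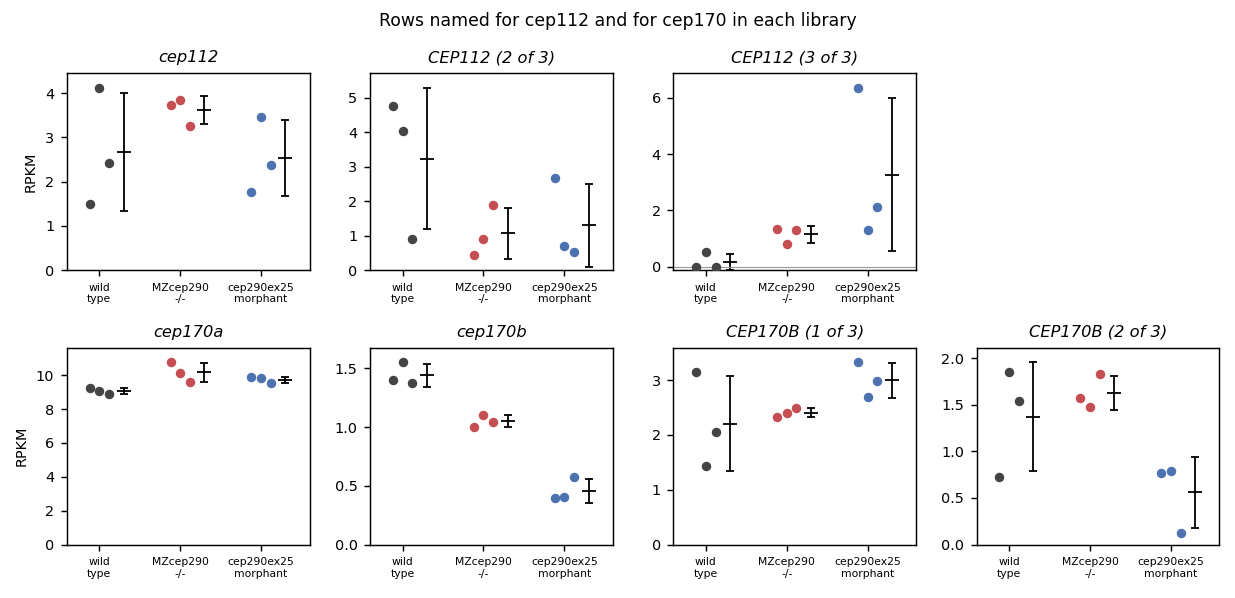
Levels in RPKM (y axis, own scale in each panel) of the rows named for *cep112* (top) and *cep170* (bottom) in the 3 libraries of each group, with the mean ± SD beside the points. *CEP112 (3 of 3)* is at 0 in a pair of wild-type libraries and reaches 6.37 RPKM in a morphant library, while *CEP112 (2 of 3)* has its highest values, 4.76 and 4.04 RPKM, in wild type. In the bottom row *cep170b* separates the 3 groups and *cep170a* stays between 8.89 and 10.8 RPKM.

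*cep55l*, related to the protein that completes the separation of daughter cells, was at 1.01 to 3.12 RPKM in wild type, 3.07 to 3.58 RPKM in the mutant and 2.09 to 3.90 RPKM in the morphant, and did not pass (log2 fold changes of 1.06 and 0.84, adjusted p of 0.0734 and 0.142). *cep128*, found at the subdistal appendages, was at 1.47 to 4.14, 1.05 to 1.56 and 0.742 to 2.29 RPKM (-0.96 and -1.11, adjusted p of 0.165 and 0.112). *cep70*, a microtubule-binding protein, was within 0.16 of no change on the log2 scale in both comparisons with wild type. Wild-type replicate 1 was the highest of the wild-type libraries for *cep55l*, *cep44*, *CEP85*, *cep135* and *cep41*. Without it 6 of the 44 genes were called higher in the mutant, namely *CEP85*, *cep135*, *cep41*, *cep44*, *cep55l* and *cep85l*. Of all 21982 genes tested, 2524 were called higher in that fit.

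A second list of 51 rows for centrosome genes without a Cep name (γ-tubulin complex, augmin complex, distal appendage and multiciliation genes), of which 44 were tested, was set beside the Cep genes. In the mutant 2 of these were higher (*ccdc61* and *ssx2ip*) and 4 lower (*tubg1*, *rttn*, *ccdc78* and *SSX2IP (3 of 3)*), in the morphant 1 was higher (*ssx2ip*) and 3 lower (*SSX2IP (3 of 3)*, *gmnc* and *spice1*), and between mutant and morphant limma called none, with 8 (18.2%) at an unadjusted p under 0.05, against 28.5% of all genes. The called shares were 4.55% and 9.09% in the mutant (10.4% and 12.1% of all genes) and 2.27% and 6.82% in the morphant (7.45% and 14.9%). Its median log2 fold changes were 0.01, 0.01 and -0.01 in the 3 comparisons. *tubg1*, the γ-tubulin that nucleates microtubules in the pericentriolar matrix, was at 19.4, 19.99 and 20.9 RPKM in wild type, 9.496, 8.88 and 8.61 RPKM in the mutant and 11.96, 12.3 and 15.6 RPKM in the morphant. It fell in the mutant by a log2 fold change of -1.15 ± 0.12 (adjusted p = 0.000164). In the morphant the fall was under 2-fold (-0.60 ± 0.12, adjusted p = 0.00535), and the mutant was lower than the morphant by -0.55 ± 0.12 (adjusted p = 0.0188). *pcnt*, the scaffold that holds it, did not pass.

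Marker genes of other cell types were summed in each library, to be set beside the Cep genes. The summed level of markers of dividing cells was 449 to 539 RPKM in wild type, 539 to 568 RPKM in the mutant and 622 to 674 RPKM in the morphant, and 2 of 13 tested were called higher in each of these groups against wild type (*mcm2* was at 0 in all libraries). Neural progenitor markers summed to 352 to 447, 487 to 499 and 414 to 421 RPKM, with 2 and 1 of 8 called higher and the morphant sum within the wild-type range. Gene by gene, 8 of the 8 were above no change in the mutant (median log2 fold change 0.56) and 7 in the morphant (0.76). With no limit on fold, 2 and 4 of them were higher at an adjusted p under 0.05. Markers of multiciliated cells and of other cells with motile cilia summed to 20.2 to 28.3, 13.6 to 17.0 and 18.03 to 23.2 RPKM, with 1 and 3 of 10 called lower and the morphant overlapping wild type. In the morphant 6 of these 10 were above no change, with a median log2 fold change of 0.58, whereas in the mutant 4 were, with a median of -0.16. Photoreceptor markers summed to 327 to 388 RPKM in wild type, 47.5 to 52.1 RPKM in the mutant and 30.7 to 39.7 RPKM in the morphant, with 6 of 8 tested called lower in both. As shares, 15.4% of the dividing-cell markers were called higher in each group, and 25% and 12.5% of the neural progenitor markers. Of all genes 10.4% and 7.45% were called higher. Called lower were 10% and 30% of the motile cilia markers and 75% of the photoreceptor markers in both, against 12.1% and 14.9% of all genes. *cep89* was lower in both mutant and morphant, as was the sum of the photoreceptor markers (2 and 0 of 8 above no change). *cep135* was higher in both, as was the sum of the dividing-cell markers (9 and 11 of 13 above no change). Log2 fold changes of the dividing-cell markers ran from -1.74 to 1.52 in the mutant, and most neural progenitor markers were above no change too. What part any of these cell types had in the levels of the Cep genes was not tested. In wild type 40.8% to 41.9% of the reads fell on the 50 genes with the most reads. In the mutant the share was 21.3% to 22.0% and in the morphant 27.8% to 34.0%. The library sizes behind the deposited values were the read totals times factors of 0.737 to 0.859, 1.31 to 1.32 and 0.895 to 1.07. With read totals in place of those factors the median log2 fold change of all genes in the mutant moved from -0.02 to 0.68, and 16 of the 44 genes then passed as higher and 0 as lower.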

How the data were processed

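Whole-embryo RNA of 9 pools was measured, with 3 pools in each of the groups wild type, *MZcep290*-/- and *cep290ex25* morphant. According to the methods and the submitters' processing notes, 50-bp single-end reads were aligned to Zv9 with STAR, counted per gene with HTSeq and tested with edgeR, with versions and counting options not given in the sources used here. The authors deposited a table of RPKM values with gene lengths. Every column of per-sample values was used. The values were whole multiples of 1 read in 100% of cases (tolerance 0.01), so reads were recovered from them. Counting intervals and floors (3 reads) cover counting error only, as PCR copies were not marked by molecular identifiers. Gene lengths are those of the deposited table, and no coordinates are given because the reference used here is of another build. Of the 47 rows, 35 had identifiers in a names table and 31 of these carried the same symbol there.

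Values were transformed to log2(RPKM + 0.1) for genes that reached 0.5 RPKM in 3 or more libraries, and 3 group means were fitted with limma 3.58.1 (mean-variance trend) in R 4.3.3. Adjustment was by Benjamini and Hochberg over 21982 genes. Limma's voom on the recovered reads was added as an alternative after seeing the data and called 2436 genes higher and 3438 lower in the mutant against wild type. In all 20 alternatives were run. Values in every library are given for *cep290*, *plk4*, *stil*, *sass6* and *cenpj* and for genes called in at least 1 comparison. Other genes are given by range, apart from those named as singled out and those a family or list turns on. In the photoreceptor list 1 gene is not reported here on its own, though it enters the sum. The genes, the lists and the tests were chosen with earlier results of these data known. Replicates are separate pools by the labels. The short label of wild-type replicate 3 repeats the number 2, but its reads differed from those of replicate 2 (chi-square per gene 8.34) as much as replicate 1 differed from replicate 2 (8.23), and it was kept as a library of its own. No sequences are printed, as the reference used here holds none for these genes. Python 3.11.15 (with pandas 2.3.3, numpy 2.4.6 and matplotlib 3.10.9) made the tables and plots.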

Additional observations from a re-analysis of the deposited data

How the results depend on the processing

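The lower call of *cep290* in the mutant against the morphant was made under all 20 alternatives. The higher call of *CEP112 (3 of 3)* in the morphant was made under all 19 that tested it. These draw on the same wild-type libraries, with 0, 1 and 0 reads, so they are not separate evidence. The higher call of *cep290* in the morphant was made under 19 of 20 and was lost with a pseudocount of 1 (0.99, under 2-fold). The counts of called genes were small and moved with the settings. With a pseudocount of 1 the mutant had 0 higher against wild type, the morphant 1 higher and 0 lower, and the mutant 0 higher against the morphant. Over all genes these counts were 1793, 1212, 2296 and 421, where the main fit had 2286, 1637, 3273 and 766. With only genes of a mean of at least 2 RPKM, which left 29 of the 44 genes and left out *cep89*, the mutant had 1 higher and 0 lower, the morphant 1 higher and 0 lower, and the mutant 2 higher against the morphant, and the median log2 fold change in the morphant was 0.163. Read totals gave 16 higher and 0 lower in the mutant and 7 higher in the mutant against the morphant, with medians of 0.902, 0.216 and 0.554 in the 3 comparisons, and they turned the sign of uncalled values in *cep290* (0.086), *plk4* (0.291) and *stil* (0.660) in the mutant and in *stil* (0.216) in the mutant against the morphant. The medians of all genes then moved to 0.680, 0.225 and 0.552. Over all genes read totals called 6593 higher and 1188 lower in the mutant against wild type. Cyclic loess gave 2 lower in the mutant, 0 lower in the morphant and 0 higher in the mutant against the morphant, with a median of -0.029 there, and *plk4* at -0.160 in the morphant. Over all genes cyclic loess called 1382 lower in the mutant and 914 in the morphant, where the main fit called 2657 and 3273. It called 499 of all genes higher in the mutant against the morphant, with a median of -0.009. A fit of only the groups compared gave 1 lower in the morphant and 4 higher in the mutant against the morphant. The 4 were *CEP250*, *cenpj*, *cep170b* and *cep85l*. Group weights gave 1 and 5, with *CEP170B (2 of 3)* added. Over all genes these fits called 1610 and 1731 higher in the mutant against the morphant, where the main fit called 766. Voom on the recovered reads, added after seeing the data, gave 4 higher in the mutant against the morphant, *cenpj*, *cep170b* and *CEP170B (2 of 3)* among them. The planned count models (edgeR and DESeq2) are not reported, since the deposited unit is RPKM and not counts. The cause of these shifts was not tested.

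Leaving out 1 library at a time gave 0 to 6 genes higher in the mutant (6 without wild-type replicate 1, 4 without wild-type replicate 2). It gave 2 to 6 higher and 2 to 4 lower in the morphant and 0 to 2 higher in the mutant against the morphant. The counts over all genes moved as well. Medians in the morphant ran from -0.103 to 0.034. The uncalled log2 fold change of *cenpj* in the mutant ran from -0.088 to 0.454, and that of *stil* from -0.469 to 0.351 in the mutant and from -0.263 to 0.556 in the morphant. Same-numbered libraries did not deviate together over the genes tested (correlations of -0.041 to 0.006). This cannot show whether they shared a clutch, which is not given. With the number as a replicate block, 0 genes were higher in the mutant against the morphant (*CEP250* at 1.20, adjusted p = 0.0636) and the other counts of called genes did not change. Depth limits the wild-type levels most, where 17 of the 44 genes had under 20 reads in a library.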
